A study of Mus musculus with 2 samples.

Results

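Cells of the neonatal mouse oviduct epithelium were split by whether the transcript of Wt1 was captured in them. Of the 263 cells of the postnatal day 4 (P4) library, 149 held at least 1 Wt1 UMI (a unique molecular identifier, 1 captured transcript) and are called Wt1+, and 114 held 0 and are called Wt1-. The sides were thus chosen by the Wt1 count itself, which is described here and not tested. The series holds 669 distinct cells in 2 libraries, the other being from adult mice at estrus. Both libraries came from C57BL/6 mice. Oviducts were dissociated with enzymes, living epithelial cells were enriched by sorting with Epcam and CD45 antibodies, and libraries were made with 10x Chromium 3' V2 chemistry. No barcode was shared between the libraries (0 cells). With 1 library at each age there is no replicate, so no test of a difference is given, and intervals cover counting error only.

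Wt1 encodes a zinc finger transcription factor that is needed for the development of the kidney, the gonad and the coelomic lining, and it can activate or repress its targets. In the female tract the oviduct, uterus and upper vagina arise from the Mullerian duct, whose epithelium expresses Pax2 and Pax8 and later gives secretory and multiciliated cells. Cells of both kinds line the oviduct, the secretory cells releasing products such as oviductin and the multiciliated cells moving the egg.

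Most cells held the transcript of the sort marker. Epcam, the adhesion molecule used in the sort, had UMI in 89.3% of Wt1+ and 82.5% of Wt1- cells. Ptprc, which encodes CD45, had 0 UMI, while the leukocyte genes Cd74, Cd52, Fcer1g, Tyrobp and Lyz2 had 120, 28, 13, 8 and 5. The counts are of cells labelled epithelial, so these values do not show how the sort performed. Total UMI per cell ran from 1331 to 23372, with 1356429 UMI in all Wt1+ and 766773 in all Wt1- cells.

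Wt1 counts per cell were low. Of the 149 Wt1+ cells, 83 held 1 Wt1 UMI, 36 held 2, 18 held 3, 6 held 4, 4 held 5, and single cells held 7 and 8. The 83 cells just inside the threshold had a median of 7765 UMI in total and the 114 just outside it a median of 6400.5. The split therefore divided cells by 1 captured transcript, and a Wt1- cell is one in which none was captured. The table holds no cell type that should lack Wt1, so the share of cells that free RNA alone would give could not be set beside these values.

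The share of cells with Wt1 moved with depth and with cluster. It was 56.7% over all P4 cells (exact Clopper-Pearson 95% interval 50.4% to 62.7%). Across 5 bins at the quintiles of total UMI it was 34.0%, 48.1%, 64.2%, 63.5% and 73.6% from the shallowest to the deepest. The authors divided the P4 cells into cluster 0 (168 cells) and cluster 1 (95 cells). In cluster 0 the share was 70.2%, with 118 Wt1+ and 50 Wt1- cells, and in cluster 1 it was 32.6%, with 31 and 64. Thinning each cell to 3000 UMI, which left out 12 shallower cells of cluster 0 and 6 of cluster 1, would give 38.3% in cluster 0 and 16.2% in cluster 1, so cluster 0 had the higher share also at equal depth. Since the clusters were made from the same cells' genes, this gap is a description and not a test.

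**Figure D1:**
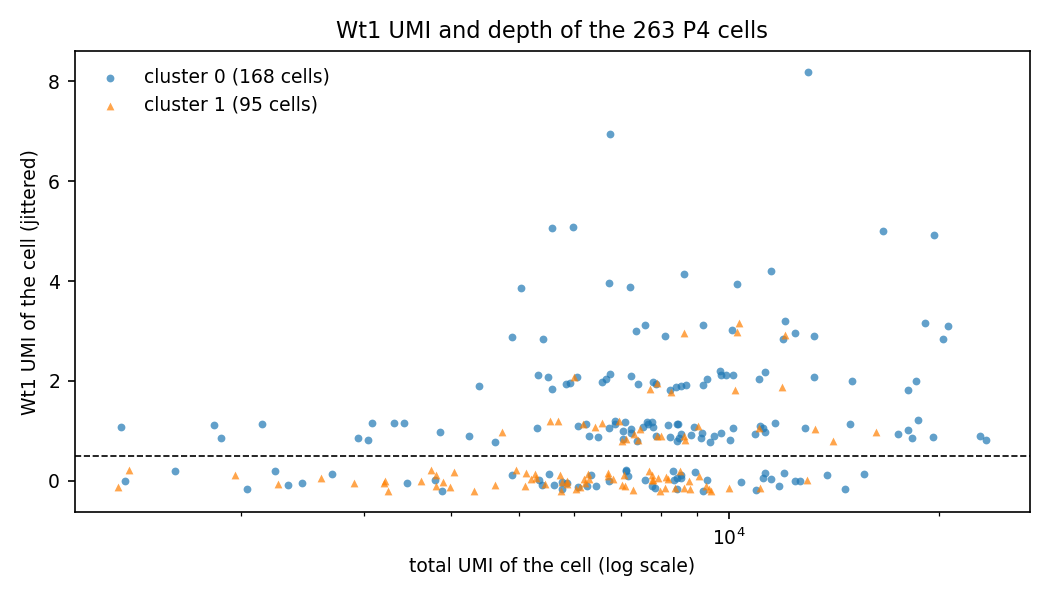
Wt1 UMI of each of the 263 P4 cells (vertical axis, jittered) against its total UMI (horizontal axis, log scale), with cluster 0 as circles and cluster 1 as triangles. The dashed line is the threshold between the 114 Wt1- cells and the 149 Wt1+ cells, and the shallow cells of cluster 1 lie almost all under it.

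For these reasons the sides were compared at matched depth. A level is UMI per 10000 UMI of the cells, computed in each of the 5 depth bins and averaged with the same weights on both sides. A fold is log2 of (Wt1+ level + 0.1) over (Wt1- level + 0.1), and a gene was counted where it passed 1.5-fold. Many values below are also given within clusters, or in strata of cluster and depth, since cluster membership can change them. Of 8798 genes with a UMI in at least 10% of cells on either side, 537 were at least 1.5-fold higher in Wt1+ cells (6.10%) and 443 at least 1.5-fold lower (5.04%). Only 82 (0.932%) were at least 2-fold higher and 38 (0.432%) at least 2-fold lower. The median log2 fold of all genes was 0.02. In strata of cluster and depth 7.15% passed higher and 4.42% lower.

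Within cluster 0, 1168 of 9306 genes passed 1.5-fold higher (12.6%) and 817 lower (8.78%). Within cluster 1 only 61 cells (23 Wt1+ and 38 Wt1-) lay in depth bins with at least 3 cells on each side, and 34 were left out. There 1438 of 8324 genes passed higher (17.3%) and 1290 lower (15.5%). The counts were larger where fewer cells were compared, so a count within cluster 1 is read against the larger background there.

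The 12 genes named as higher in Wt1+ cells fell into secreted and surface products, cilium genes and others. By the rule that named them they had the same direction in both clusters, as 27.7% of all measured genes did in the higher direction. Passing 1.5-fold as well held for 4.75% of genes in the higher and 3.89% in the lower direction. All of the 12 but Yae1d1 and Ppp1r1b passed the filter on share of cells only through the Wt1+ side. Genes named in either direction were ranked by the fold itself, so intervals and bin counts given for them are no test. Cxcl10, a chemokine that draws T cells, led with 122 UMI in Wt1+ and 15 in Wt1- cells. Its pooled level was 0.899 per 10000 (95% interval 0.747 to 1.07) against 0.196 (0.109 to 0.323). In single cells it ran from 0 to 16.4 per 10000 on the Wt1+ side and from 0 to 5.69 on the Wt1- side, with a median of 0 on both. The sides overlapped, and the gap lay in 36 Wt1+ and 10 Wt1- cells that held any. At matched depth the log2 fold was 1.99, with Wt1+ higher in 5 of 5 bins (as for 4.67% of all genes), and it was 2.23 in cluster 0, 0.77 in cluster 1 and 1.88 in strata of cluster and depth. The fold of Cxcl10 was thus nearly the same at matched cluster.

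Ppp1r1b, which encodes DARPP-32, a regulator of protein phosphatase 1, was the named higher gene with the most UMI. Its level was 1.40 per 10000 (1.21 to 1.61) in Wt1+ and 0.548 (0.395 to 0.740) in Wt1- cells, from 190 and 42 UMI. In single cells it ran from 0 to 9.78 with a median of 1.03 on the Wt1+ side, and from 0 to 7.34 with a median of 0 on the Wt1- side. It was found in 58.4% of Wt1+ and 25.4% of Wt1- cells. By depth bin the Wt1+ level was 1.22, 1.36, 2.11, 1.75 and 0.933 against 0.335, 0.614, 0.347, 0.535 and 0.813. All 5 bins had the same direction, and the gap was narrowest in the deepest cells. The log2 fold was 1.36 at matched depth and 0.99 in strata of cluster and depth, so part of the first value moved with cluster. Its level did not climb steeply with Wt1, being 1.34 per 10000 in cells with 1 Wt1 UMI, 1.41 with 2 and 1.53 with 3 or more. These levels by Wt1 count were matched on neither depth nor cluster.

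Cldn19, a tight junction claudin, had 38 UMI in Wt1+ and 6 in Wt1- cells and a log2 fold of 1.26, with 0.92 in cluster 0 and 1.76 in cluster 1. Agr2, a disulfide isomerase of secretory cells, had 39 and 7 UMI and a log2 fold of 1.33. The remaining higher genes without a cilium role were Yae1d1, Ankrd54, Serpinb6b, Khdrbs3 and Trp53bp2, with log2 folds from 1.33 to 1.52. Khdrbs3 had only 3 UMI in Wt1- cells, with a pooled level of 0.192 (0.125 to 0.281) against 0.0391 (0.00807 to 0.114). For Yae1d1 a single Wt1+ cell held 36.7% of all UMI.

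**Figure D2:**
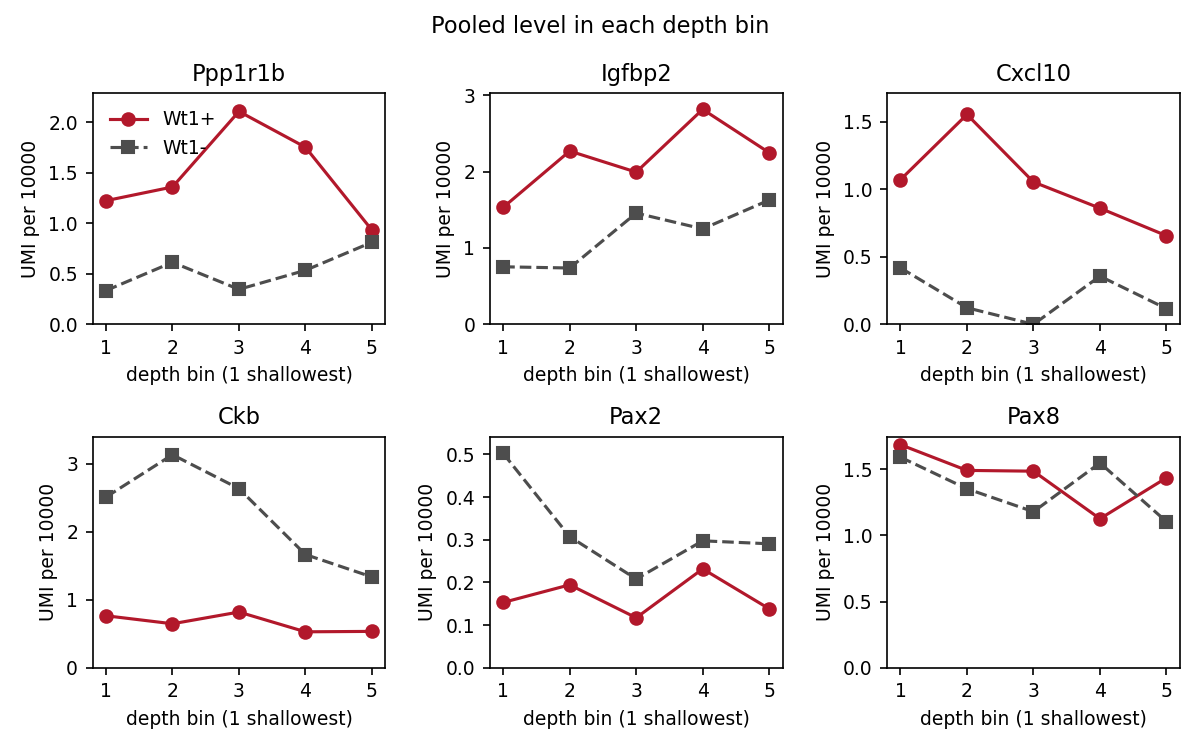
Pooled level (UMI per 10000, vertical axis from 0) of 6 genes in each depth bin (horizontal axis, 1 shallowest), with Wt1+ cells as circles and Wt1- cells as squares. Ppp1r1b, Igfbp2 and Cxcl10 are higher in Wt1+ cells and Ckb and Pax2 lower in 5 of 5 bins, while the lines of Pax8 cross.

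Cilium genes were higher in Wt1+ cells, and much of this lay in few cells. The sum of all 12 markers of multiciliated cells was 5.12 per 10000 in Wt1+ and 1.91 in Wt1- cells at matched depth, while the medians of single cells were 1.53 and 1.14. Ccdc153, Tmem212 and Fam183b missed the filter on share of cells. Of the 9 measured, 8 passed 1.5-fold higher and 0 lower, against 6.10% and 5.04% of all genes. Mcidas, Deup1, Ccno, Myb and Rsph1 passed the filter only through the Wt1+ side, so that count is partly set by the filter. In cluster 0 it was 11 of 11 higher, against 12.6% of genes there, and in cluster 1 it was 4 of 6 higher and 1 lower, against 17.3% and 15.5%. Foxj1, the regulator of motile cilia, had 162 and 25 UMI and a log2 fold of 1.19 over all cells, 1.36 in cluster 0 and -0.84 in cluster 1, where it had 5 and 9 UMI. Myb, which acts early in the multiciliated program, had 112 and 14 UMI and a log2 fold of 1.28. Rsph9, a radial spoke protein, had 46 and 3 UMI, a ratio of pooled levels with a 95% interval of 2.79 to 43.6. Meig1 had 70 and 3 UMI (4.33 to 65.5), of which 69 and 0 lay in cluster 0. Rsph9 and Meig1 also passed the filter only through the Wt1+ side and were named by their folds, so these intervals are no test.

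In 8 cells the summed multiciliated markers reached at least 30 UMI per 10000 (31.1 to 129), against at most 24.9 in any other P4 cell. All 8 were Wt1+ and in cluster 0, and they held 49.2% of all Foxj1 UMI. They were deep, with a median of 18605.5 UMI, and their Wt1 level of 1.38 per 10000 was close to the 1.54 of the rest of cluster 0. No doublet caller was run, and the part of depth or doublets was not tested. Because these 8 cells were picked by the same markers and all were Wt1+, leaving them out lowers the Wt1+ marker levels by construction. The values without them are a description and no test, and fewer markers then met the filter. Without these cells 2 of 6 measured markers passed 1.5-fold higher and 0 lower, with a median log2 fold of 0.19, and in cluster 0 it was 1 of 8 higher and 2 of 8 lower with a median of -0.20. The background without these cells was 5.50% higher and 5.38% lower over all cells, and in cluster 0 it was 11.3% higher and 9.35% lower. Foxj1 then had 70 and 25 UMI and a log2 fold of 0.73, while Tppp3 was at -0.05 and Dynlrb2 at -0.26. Rsph9 was at 1.32 with 26 and 3 UMI.

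**Figure D3:**
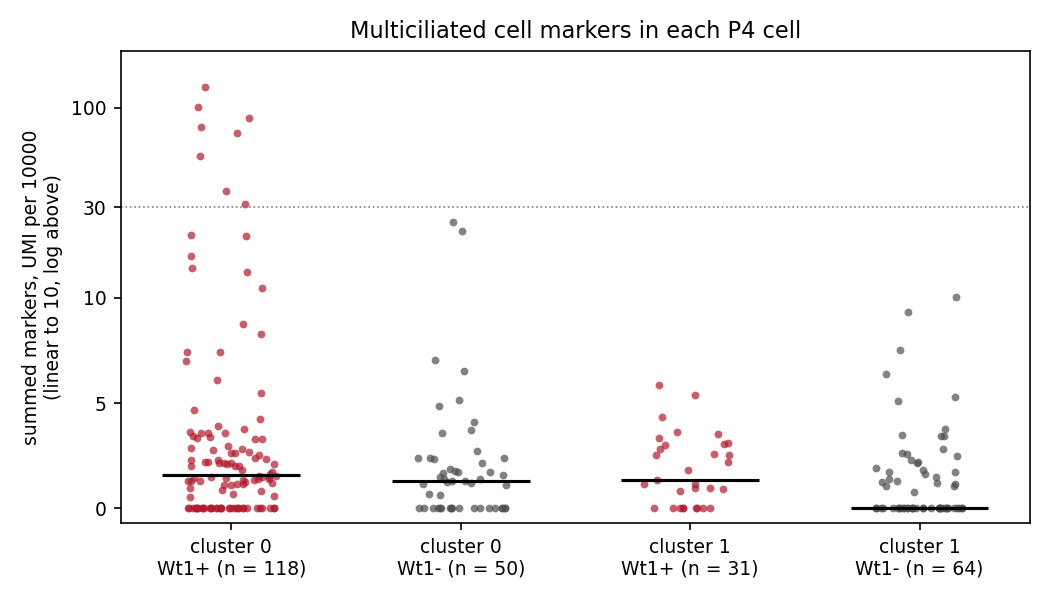
Summed multiciliated markers of each P4 cell (UMI per 10000, linear to 10 and log above), by cluster and side, with the median as a bar. The 8 cells above the dotted line at 30 are all Wt1+ cells of cluster 0, while the medians of both sides of cluster 0 lie close together.

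Among the 12 genes named as lower in Wt1+ cells, cluster membership mattered more. Ckb, the brain-type creatine kinase, had 83 UMI in Wt1+ and 170 in Wt1- cells, or 0.612 per 10000 (0.487 to 0.759) against 2.22 (1.90 to 2.58). In single cells it ran from 0 to 8.79 with a median of 0 on the Wt1+ side and from 0 to 14.7 with a median of 1.17 on the Wt1- side. The Wt1- level was higher in 5 of 5 depth bins (as for 3.80% of all genes), and the cells of the sides overlapped. Its pooled level was 2.22 in cells with 0 Wt1 UMI, 0.782 with 1, 0.532 with 2 and 0.312 with 3 or more. These levels were matched on neither depth nor cluster. Cluster 1 held 64 of the 114 cells with 0 Wt1 UMI, 21 of the 83 with 1 and 6 of the 36 with 2. The log2 fold was -1.68 at matched depth, -1.16 in cluster 0, -0.94 in cluster 1 and -1.01 in strata of cluster and depth. Most Ckb UMI came from cluster 1, where the majority of Wt1- cells lay, and within both clusters the Wt1+ level was still the lower one.

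Lgi1, a secreted leucine-rich protein, had 30 and 69 UMI and went from -1.68 to -0.80 in strata of cluster and depth. Ptpn22, a tyrosine phosphatase, had 231 and 322 UMI and went from -1.26 to -0.43, under 1.5-fold. Lrig1, a negative regulator of epidermal growth factor receptors, had 61 and 71 UMI and went from -1.21 to -0.48. For these genes the difference between Wt1+ and Wt1- cells was thus smaller at matched cluster. Alkbh3, Prmt7, Shtn1 and Skap1 kept -1.12 to -1.25 in the same strata, on 22 to 30 UMI on the Wt1- side. Ptprr, Fam46b, Sned1 and Egln1 lay between -0.56 and -1.07. Alkbh3, Ptprr, Fam46b and Egln1 passed the filter on share of cells only through the Wt1- side.

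**Figure D4:**
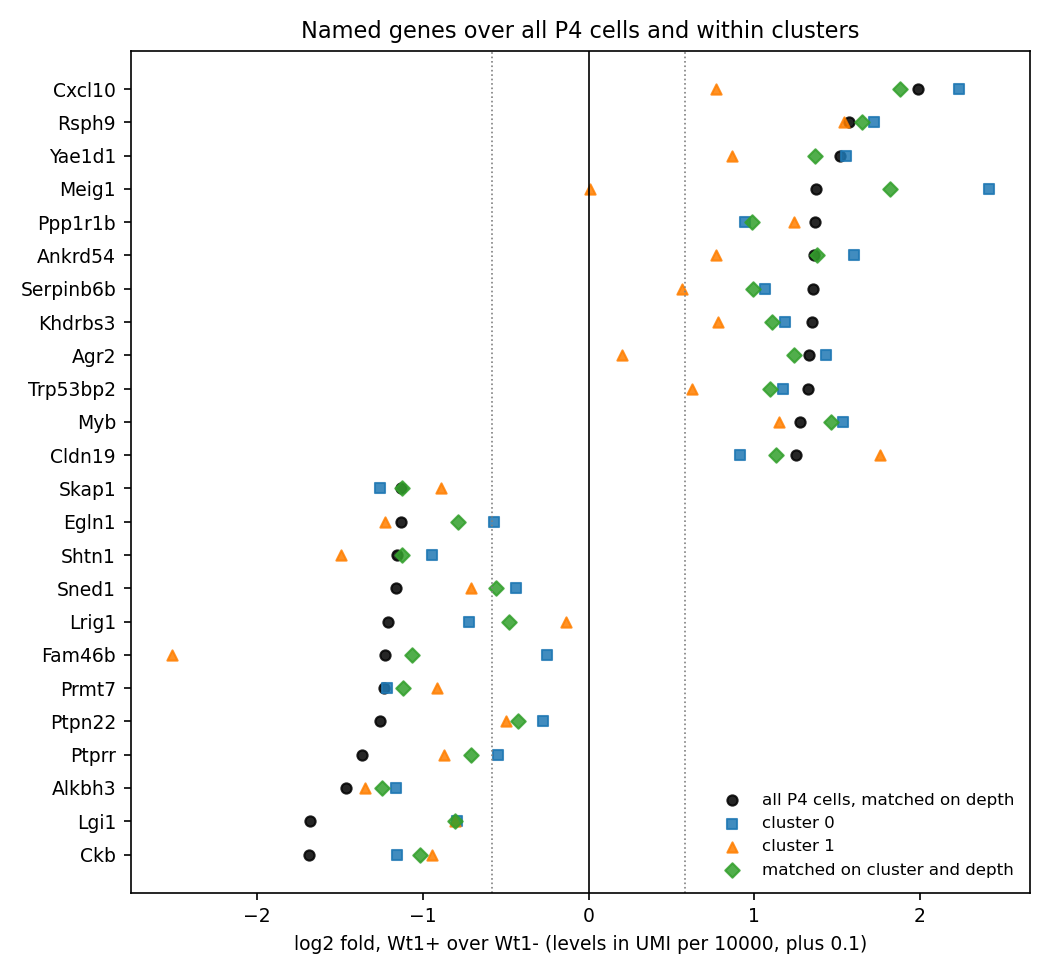
log2 fold of Wt1+ over Wt1- cells for the 12 genes named in each direction, over all P4 cells at matched depth (circles), in cluster 0 (squares), in cluster 1 (triangles) and in strata of cluster and depth (diamonds), with dotted lines at 1.5-fold. Ckb moves from -1.68 to -1.01 and Ptpn22 from -1.26 to -0.43 when cluster is matched, while Cxcl10 stays near 1.99 at 1.88.

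Regulators of the Mullerian epithelium did not move together. Pax8 was found at 1.39 per 10000 (1.20 to 1.61) in Wt1+ and 1.34 (1.10 to 1.63) in Wt1- cells, with single cells from 0 to 8.46 (median 1.16) and from 0 to 13.4 (median 0.952). Its log2 fold was 0.08, and the intervals overlapped almost fully. Pax8 UMI were found in 101 of 149 Wt1+ cells and in 61 of 114 Wt1- cells, and thinned to 3000 UMI the shares would be 33.4% and 31.4%. At equal depth the sides thus held Pax8 in nearly the same share of cells. Pax2 had only 22 and 24 UMI, in 14.1% of Wt1+ and 20.2% of Wt1- cells. Its level was 0.162 (0.102 to 0.246) against 0.313 (0.201 to 0.466), lower in Wt1+ cells in 5 of 5 depth bins, with a log2 fold of -0.64. Within clusters the Pax2 fold was -0.56 and 0.18, and it was -0.23 in strata of cluster and depth, so no difference at matched cluster was detectable at this depth. Sox9 had 39 and 8 UMI and a log2 fold of 0.88, with 0.49 and 1.64 within clusters. It passed the filter on share of cells only through the Wt1+ side. Of 18 measured Mullerian regulators, 3 passed 1.5-fold higher (Foxj1, Sox9 and Nr2f2) and 2 lower (Pax2 and Dach1), against 6.10% and 5.04% of all genes. In strata of cluster and depth it was 3 higher and 0 lower, with Dach1 at -0.09 and Nr2f2 at 0.34.

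Secretory products lay in both directions over all cells. Ovgp1, which encodes oviductin, was at 1.87 per 10000 (1.65 to 2.12) in Wt1+ and 2.57 (2.22 to 2.95) in Wt1- cells, with a log2 fold of -0.58 at matched depth and -0.14 in strata of cluster and depth. Wfdc2, a whey acidic protein family member, was at 10.0 (9.49 to 10.6) against 15.6 (14.8 to 16.5), with a log2 fold of -0.77 that became -0.30 in those strata. Both genes thus differed less at matched cluster. Clu, an extracellular chaperone, was higher at 1.24 with 73 and 24 UMI, and Ltf, which encodes lactotransferrin, at 1.38 with 30 and 5. Of 13 measured secreted products, 4 passed 1.5-fold higher and 2 lower (Wfdc2 and Serpina1e), against 6.10% and 5.04% of all genes. In strata of cluster and depth it was 3 higher and 0 lower, so the lower calls were not kept at matched cluster. In cluster 0, 3 of 13 were higher, and in cluster 1 it was 0 of 9, with 0 lower in both. Ltf, Agr2 and Wfdc18 passed the filter on share of cells only through the Wt1+ side. The count of higher secreted products is thus partly set by the filter.

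Genes of the insulin-like growth factor pathway lay mostly within 1.5-fold. Igfbp2, which binds these factors outside the cell, was at 2.29 per 10000 (2.05 to 2.56) in Wt1+ and 1.19 (0.956 to 1.46) in Wt1- cells, from 311 and 91 UMI. Single cells ran from 0 to 10.5 with a median of 1.66 on the Wt1+ side and from 0 to 8.19 with a median of 0 on the Wt1- side. The Wt1+ level was higher in 5 of 5 depth bins, with a log2 fold of 0.90, and with 0.42 in cluster 0, 1.42 in cluster 1 and 0.62 in strata of cluster and depth. In cluster 1, 74.2% of Wt1+ and 29.7% of Wt1- cells held an Igfbp2 UMI. These shares are not matched on depth, since 24 of those Wt1- cells but 1 of the Wt1+ cells lay in the shallowest bin. The ligand Igf2 had 8 and 16 UMI and a log2 fold of -1.28, and of -0.92 in strata of cluster and depth. Igf2 passed the filter on share of cells only through the Wt1- side. In cluster 0 it was found in 5.08% of Wt1+ and 6.00% of Wt1- cells, and in cluster 1 in 6.45% and 17.2%. Of 18 measured members of the imprinted and growth factor list, 1 was higher and 1 lower, near the 6.10% and 5.04% of all genes.

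Over all cells, genes described as targets of Wt1 in other tissues passed 1.5-fold in both directions, and partner genes in neither. Of 15 measured targets, 2 passed 1.5-fold higher (Cxcl10 and Sox9) and 2 lower (Pax2 and Igf2), against 6.10% and 5.04% of all genes. Their median log2 fold was 0.05, with 11 above 0, and it was 0.25 in strata of cluster and depth. Cxcl10 and Sox9 passed the filter on share of cells only through the Wt1+ side, and Igf2 only through the Wt1- side. The counts of targets past 1.5-fold are thus partly set by the filter. In cluster 1, 5 of 13 targets were higher and 1 lower, against 17.3% and 15.5% of genes there, with a median of 0.38. In cluster 0 it was 2 and 1 of 14, with a median of 0.12. Of 8 measured partner genes, which include Basp1, Pawr and Cited2, 0 passed in either direction over all cells. In cluster 1, 1 of 7 partners was higher and 3 lower. Wt1os, the antisense transcript of the Wt1 locus, had 16 and 5 UMI and a log2 fold of 0.45. Its counts were too few to tell the sides apart, with a ratio interval of 0.633 to 6.31, and the strand used in counting is not given in the sources used here.

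Of 13 measured Hox genes 1 was higher and 2 lower, beside a background of 6.10% and 5.04%. These are few genes, and in strata of cluster and depth it was 1 and 1. In cluster 1, 3 of 12 were higher and 3 lower, against 17.3% and 15.5% of genes there. The higher one over all cells, Hoxc5, had 33 and 5 UMI, or 0.243 against 0.0652 per 10000. Hoxb6 had 57 and 63 UMI and a log2 fold of -0.80, which became -0.46 in strata of cluster and depth. Hoxb8 had 1 UMI in Wt1+ and 19 in Wt1- cells, a ratio of pooled levels with an interval of 0.000716 to 0.187. Of those 19, 17 lay in cluster 1, all of them in Wt1- cells, against 0 in the Wt1+ cells of that cluster. There the level was 0.431 per 10000 (0.251 to 0.690) in Wt1- cells and at most 0.137 by the interval in Wt1+ cells. Within cluster 1 the level was thus also lower in Wt1+ cells, and in strata of cluster and depth the log2 fold was -1.21. Hoxb8 passed the filter on share of cells only through the Wt1- side, and Hoxc5 only through the Wt1+ side. Both were named for passing 1.5-fold, so these levels and intervals describe the choice and are no test.

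The RefSeq promoter windows (GRCm38.p6, 250 bases before to 50 after a start) are shown for the leading gene in each direction and for Hoxb8, the lowest list member. Capitals mark a match to the zinc finger motifs GCGGGGGCG or GCGTGGGAG on either strand. The windows are chr5:92348840-92349139 (minus strand) for Cxcl10, chr12:111672289-111672588 (minus) for Ckb and chr11:96281655-96281954 (plus) for Hoxb8.
Cxcl10: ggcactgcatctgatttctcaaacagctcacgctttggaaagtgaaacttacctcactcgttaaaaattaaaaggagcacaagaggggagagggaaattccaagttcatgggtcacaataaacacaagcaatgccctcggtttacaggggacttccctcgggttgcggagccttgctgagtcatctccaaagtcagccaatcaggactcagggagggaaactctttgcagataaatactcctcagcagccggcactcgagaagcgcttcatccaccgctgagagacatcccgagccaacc
Ckb: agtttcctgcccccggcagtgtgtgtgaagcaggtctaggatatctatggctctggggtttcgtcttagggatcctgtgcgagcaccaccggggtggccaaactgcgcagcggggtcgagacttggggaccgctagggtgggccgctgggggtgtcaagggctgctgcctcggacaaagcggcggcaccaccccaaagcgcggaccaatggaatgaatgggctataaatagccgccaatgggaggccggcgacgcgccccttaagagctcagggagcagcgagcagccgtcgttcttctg
Hoxb8: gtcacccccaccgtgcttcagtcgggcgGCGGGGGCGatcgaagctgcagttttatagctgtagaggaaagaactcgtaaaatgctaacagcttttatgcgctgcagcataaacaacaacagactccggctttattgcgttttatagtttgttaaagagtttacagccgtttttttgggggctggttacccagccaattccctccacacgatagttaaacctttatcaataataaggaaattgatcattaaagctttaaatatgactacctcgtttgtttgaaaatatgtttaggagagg
Hoxb8 held 1 match, to GCGGGGGCG, and the windows of Cxcl10 and Ckb held none. Of the windows of the 12 named higher genes 0 of 14 held a match, and of the 12 named lower genes 0 of 13. The share was 6.57% for genes past 1.5-fold higher, 5.39% for those past 1.5-fold lower, 6.44% for all genes measured and 3.36% for all 32851 windows. A second scan with GCGTGGGNG in place of GCGTGGGAG was added after the first had found no match in the named genes. It too gave 0 of 14 and 0 of 13, and 8.32%, 8.20%, 8.70% and 4.70% for the 4 larger sets. Neither of the 2 scans set the genes past 1.5-fold apart from all genes measured. A match or its lack is a description of these letters only.

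Over all cells few genes of each signalling pathway passed 1.5-fold, beside a background of 6.10% higher and 5.04% lower. Of 21 measured Wnt genes 2 were higher and 2 lower. Sfrp5, a secreted Wnt inhibitor, had 19 and 5 UMI and a log2 fold of 0.99, and Lgr4, a receptor for R-spondins, was at 0.62 with 132 and 49. The ligand Wnt7a was at -0.76 with 29 and 31 UMI and the receptor Fzd10 at -0.87 with 34 and 45. Of 20 Tgfb and Bmp genes 2 were higher (Tgfb3 at 0.76 and the inhibitor Smad6) and 2 lower (Tgfbr2 at -0.86 and Smad2 at -0.93). Sfrp5, Tgfb3 and Smad6 passed the filter on share of cells only through the Wt1+ side, so these higher calls are partly set by the filter. Of 9 Notch genes 0 passed in either direction, and of 11 retinoid genes only the receptor Rxra was higher, at 0.73 with 18 and 6 UMI. Rxra too passed the filter only through the Wt1+ side. In cluster 0, 2 of 8 Notch genes were higher, against 12.6% of genes there. In cluster 1 it was 3 of 9, against 17.3%, with 0 lower in both. In strata of cluster and depth Notch genes had 1 higher and 0 lower, and retinoid genes 0 higher and 1 lower. Those strata gave 2 and 1 for Wnt genes and 3 and 3 for Tgfb and Bmp genes. Among 12 cyclins and inhibitors, Cdkn1a, the p21 inhibitor, was at 0.61 with 351 and 139 UMI, and Ccnd2, a cyclin of the first gap phase, was at -0.78 with 275 and 255. In cluster 1 Ccnd2 was at 0.11 and Cdkn1a at 0.09.

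Cell cycle genes had unlike counts in the 2 clusters. Over all cells 0 of 18 measured S phase genes passed 1.5-fold in either direction, and in cluster 0 it was 0 higher and 3 lower, against 12.6% and 8.78% of genes there. In cluster 1, 10 of 18 were higher and 1 lower, against 17.3% and 15.5%, with a median log2 fold of 0.75. Among the higher ones were Pcna (25 and 11 UMI, 1.65) and Mcm7 (20 and 14 UMI, 1.17). Of 16 measured G2 and mitosis genes there, 7 were higher and 2 lower. In cluster 0, 3 of 18 were higher and 3 lower, and over all cells 2 of 17 were higher and 1 lower. Pclaf, a partner of the replication clamp, led the genes named in cluster 1 with 87 and 14 UMI and a log2 fold of 2.08. The summed S phase level in cluster 1 was 7.37 per 10000 at matched depth in Wt1+ and 4.58 in Wt1- cells. Single Wt1+ cells ran from 0 to 29.7 with a median of 4.84 and Wt1- cells from 0 to 20.1 with a median of 4.90. These S phase medians were alike, and the difference lay in the cells with high values. For the G2 and mitosis sum in cluster 1 the medians of single cells were 5.47 (Wt1+) and 3.21 (Wt1-), not matched on depth. The difference between the clusters itself was not tested.

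Other genes named in cluster 1 were Gadd45a, Lsp1, Selenom and Nfu1 as higher (1.23 to 1.38) and Eif3b, Clpp, Edn1, Lyar, Cp and Emp1 as lower (-1.57 to -1.48). Edn1, which encodes endothelin, had the opposite sign in cluster 0, at 0.53 with 365 and 111 UMI. In cluster 0 the named genes were Plac8, Fam216a, Riiad1 and Setd1b as higher (1.75 to 1.85), besides Meig1 and Cxcl10. Apoe, Ccnb2, Timm10b, Cavin3 and Cers2 were lower there (-1.54 to -1.02), besides Ckb. Apoe, a lipid carrier, was at -1.54 in cluster 0 and 0.59 in cluster 1, and 1 Wt1- cell held 15.9% of its UMI.

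Of 5 mesothelial and 6 stromal markers measured, 0 passed 1.5-fold in either direction, while single markers of smooth muscle, endothelium and leukocytes did. Of 9 epithelial markers and 16 dissociation stress genes measured, 0 passed in either direction. At the background of 6.10% higher and 5.04% lower, sets this small would hold few calls or none. Summed stromal markers were at 6.15 per 10000 in Wt1+ and 6.06 in Wt1- cells at matched depth, and mesothelial markers at 11.0 and 11.6. The mesothelial sum was mostly Krt19, a keratin that is also among the epithelial markers. Krt19 had 1755 UMI over all P4 cells, against 212 for Upk3b and 102 for Msln. Single cells ran from 0 to 38.4 (Wt1+) and from 0 to 23.2 (Wt1-) for the stromal sum, and the sides overlapped. Of 5 smooth muscle markers 1 was higher (Actg2) and 1 lower (Tagln), and Pecam1, the 1 measured endothelial marker, was at -0.65 with 16 and 17 UMI. Actg2 passed the filter on share of cells only through the Wt1+ side. Cd74, the 1 measured leukocyte gene, was at 1.03 with 93 and 27 UMI. In strata of cluster and depth Cd74 was at 0.55, under 1.5-fold, and Pecam1 at -0.99. Smooth muscle markers had 0 higher and 1 lower in those strata. The part of such cells in the results was not tested.

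The adult library, which the choice of these genes did not use, did not show the same genes. Its 206 Wt1+ and 200 Wt1- cells had median totals of 4517.5 and 1273 UMI, so strata of cluster and depth were used. Of these cells, 201 Wt1+ and 148 Wt1- lay in strata with at least 3 cells on each side and were compared. There 12.5% of 5633 genes passed 1.5-fold higher and 7.40% lower, and 52.6% were above 0. Of the 12 genes named as higher at P4, 10 were measured in adult cells, 6 had the same direction and 0 passed 1.5-fold higher. Of the 12 named as lower, 2 were measured and 0 had the same direction. Ppp1r1b was at -0.47 and Ckb at 0.42, both opposite to P4. Of all genes past 1.5-fold higher at P4, 58.0% of 257 were above 0 in adult cells against 52.0% of all genes, and of those past 1.5-fold lower, 43.4% of 175 were below 0 against 48.0%.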

How the data were processed

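The values deposited by the authors are unnormalized UMI counts, with a cluster number for each cell, and they were checked to be whole numbers. The submitters' processing notes list Seurat 2.3.4, Cell Ranger without a version and mm10, with no role stated. The P4 table lists 53573 genes. The adult counts have 807 columns with 406 distinct barcodes, and 1 column per barcode was used.

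Depth bins were used where both sides had at least 3 cells, each weighted by the smaller side. A gene was measured with a UMI in at least 10% of cells on either side. Levels have exact 95% Poisson intervals, ratios exact conditional ones. Named genes were the 12 with the largest fold in each direction over all P4 cells (at least 1.5-fold, 20 UMI on the higher side, same direction in both clusters), and the 6 in each direction within a cluster (30 UMI). Ribosomal, mitochondrial, Gm, Rik and pseudogene entries were left out. List members past 1.5-fold and Wt1, Pax2, Pax8, Foxj1, Ovgp1 and Epcam were added. Members, lists and rules were chosen with earlier results of these data known. Gene positions come from GENCODE on GRCm38 and promoters from RefSeq. The code was tested on simulated data and used Python 3.11.15, numpy 2.4.6, pandas 2.3.3 and scipy 1.17.1.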

Additional observations from a re-analysis of the deposited data

How the results depend on the processing

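The counts of genes past 1.5-fold depended on how low counts were treated. With a pseudocount of 0.5 they were 35 higher and 24 lower over all P4 cells, 64 and 39 in cluster 0, and 235 and 242 in cluster 1. With a filter of 25% of cells they were 151 and 125, 349 and 230, and 674 and 403. With a pooled count of at least 20 in place of the filter on cells they were 536 lower in cluster 0, and 531 higher and 559 lower in cluster 1. Without the cells above the median of cell cycle UMI they were 1027 higher and 1027 lower over all cells, and 1979 and 1539 in cluster 0. With 2 or more Wt1 UMI against 0 they were 3355 and 3280 in cluster 1. These settings change the number of genes tested, of cells or the fold of low genes by construction.

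Of 442 log2 folds of 34 named genes under the alternatives, 431 moved by less than the counting error of the pooled ratio, 11 by more, and 0 of those past 1.5-fold changed sign. Thinning to 2000 or 5000 UMI gave 27.6% and 51.6% of cells with Wt1 in cluster 0, and 10.9% and 28.2% in cluster 1. Leaving out the cell with most UMI of a gene, the cluster strata and the cells with multiciliated markers for the gene lists, and the second motif scan were chosen after seeing the data. No paired analysis was possible because each age has 1 library. Depth limits all genes with fewer than about 20 UMI on the higher side.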
